A study of Bos taurus with 12 samples.

Results

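The subject is the interaction of pregnancy outcome and cycle day in bovine endometrium, that is, the genes whose course from day 7 to day 14 differed between heifers that later delivered a calf and heifers that did not become pregnant. All 12 of the 12 arrays of the series entered it, in 4 groups of 3 pools. Endometrial biopsies had been taken from Simmental heifers (Bos taurus) at day 7 or day 14 of the oestrous cycle, in the cycle before each heifer received an embryo biopsy. CDd7 and CDd14 come from heifers whose pregnancy ended in calf delivery (CD), and NPd7 and NPd14 come from heifers with no pregnancy (NP), which had returned to heat. The labels name no treatment besides the transfer, which followed the sampling, and state no age. Total RNA of pools was hybridised to 1 array each. How many heifers a pool holds, and whether pools of both days share heifers, is not stated in these sources, so the p-values measure the spread between these pools.

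Between day 7 and day 14 the bovine endometrium passes from early to full progesterone influence. Its glands turn from growth to secretion, and lining cells change their transporters, adhesion proteins and receptors before the time at which an embryo would elongate. Fibroblast growth factors, collagens of the stroma, and genes of the cell division machinery are among the transcripts known to be remodelled in this interval.

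The members are the 6781 genes with a symbol that passed a filter on low values, each represented by 1 of 13449 kept probe sets of 24016 (a log2 value above 4 on at least 3 arrays). For each gene the day effect in CD (CDd14 minus CDd7) and the day effect in NP (NPd14 minus NPd7) were set side by side. Their difference, CD minus NP, is the interaction, called the difference of the day effects here. All values are log2 GCRMA values, errors are standard errors of the limma fit unless named otherwise, and every group has n = 3 pools. Of 21 listed epithelial markers of the tissue 18 passed the filter, and the keratin KRT18 lay between 10.92 and 11.71 on all arrays. In a bulk biopsy fewer cells of a type and less RNA per cell cannot be told apart.

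Pool 2 of both NP groups stood apart. On genes described below it kept a day 7 level at day 14: the matrix protein SPARC was at 8.51 in NPd14 pool 2 against 4.87 and 5.08 in pools 1 and 3, and the mitotic cyclin CCNB1 was at 10.10 against 7.46 and 5.63. NPd14 pool 3 lay at the day 7 level for other genes, such as the zinc transporter SLC39A2 (5.49, against 12.97 and 13.26). The difference between 3' and 5' probe sets of control transcripts, a measure of RNA integrity and labelling, was 0.32 higher at day 14 in CD and 0.38 higher in NP, so that the day shifts of this measure differed by -0.06. It also differed between the outcomes, with means of 1.65 in CDd7, 1.94 in NPd7, 1.97 in CDd14 and 2.32 in NPd14. At day 14 the outcomes did not overlap in it, and NPd7 lay near CDd14. The part of this score in the results was not tested beyond the fit with it as a covariate, which called no probe set either.

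No probe set passed the interaction test. With limma, adjusted by Benjamini-Hochberg across all 13449 probe sets, 0 (0%) had an adjusted p under 0.05, and the smallest adjusted p was 0.192. An unadjusted p under 0.05 was reached by 1900 probe sets (14.1%), of which 895 had a positive and 1005 a negative difference. Over genes these were 980 of 6781 (14.5%): 508 (7.49%) with the difference above 0 and 472 (6.96%) below 0. The median standard error was 0.27, and the median half-width of the 95% interval was 0.60, so that the 12 arrays measured a difference of the day effects only to about that width. The counts of genes below therefore describe fitted values, and the differences between outcomes that they list did not pass the adjusted threshold. Leaving out single pools changed the number of called probe sets to 53 (without NPd7 pool 2), 22 (without CDd7 pool 1), 5 (without CDd7 pool 3) and 3 (without CDd14 pool 2). It stayed at 0 without any other single pool. With the pool within each outcome as a block, a fit added after seeing the data, 28 probe sets were called, though no label says that pool numbers mark the same heifers. Array weights gave 2825, or 503 when estimated gene by gene, with the limits given at the end.

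The day effect was wider in CD than in NP. Its median size was 0.35 in CD and 0.21 in NP, and it was larger in CD for 67.8% of the genes (64.5% to 70.5% when each pool was left out in turn). A day effect of at least 1 on the log2 scale was fitted for 1024 genes in CD and 406 in NP. By the limma test of each day effect, 669 genes rose (9.87%) and 964 fell (14.2%) in CD, while 4 rose (0.0590%) and 5 fell (0.0737%) in NP. These counts alone do not test a difference between outcomes. Over all genes the spread within groups was similar, with median SDs of 0.21 in CDd7, 0.18 in CDd14, 0.19 in NPd7 and 0.23 in NPd14. Single genes described below departed from this in either direction. The SD in NPd14 and CDd14 was 3.82 and 0.15 for EDN3, 1.54 and 0.25 for LPL, and 0.42 and 1.06 for SLC52A3.

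The 1158 genes with a day effect of at least 1 in either outcome were sorted by the course of the 2 fitted effects. In 46 genes the effects had opposite signs, both at least 0.5 in size. In 417 the CD effect was at least 1 and the NP effect under 0.5 (flat in NP), and in 68 the reverse held (flat in CD). In 253 the NP effect had the same sign and at most 0.5 times the size of the CD effect (smaller in NP), and in 23 the CD effect was the smaller one by the same rule (smaller in CD). The other 351 genes had similar courses. Beside the background of 14.5%, an unadjusted p under 0.05 was held by 25 of the 46, 227 of the 417, 20 of the 68, 124 of the 253, 3 of the 23 and 11 of the 351. The classes are built from the same contrast, so nothing is read from these counts. At the edge of the flat class lay CD244, with 1.03 in CD and -0.50 in NP, and PPP1R32, with -1.28 and -0.50, stood just outside it.

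**Figure D1:**
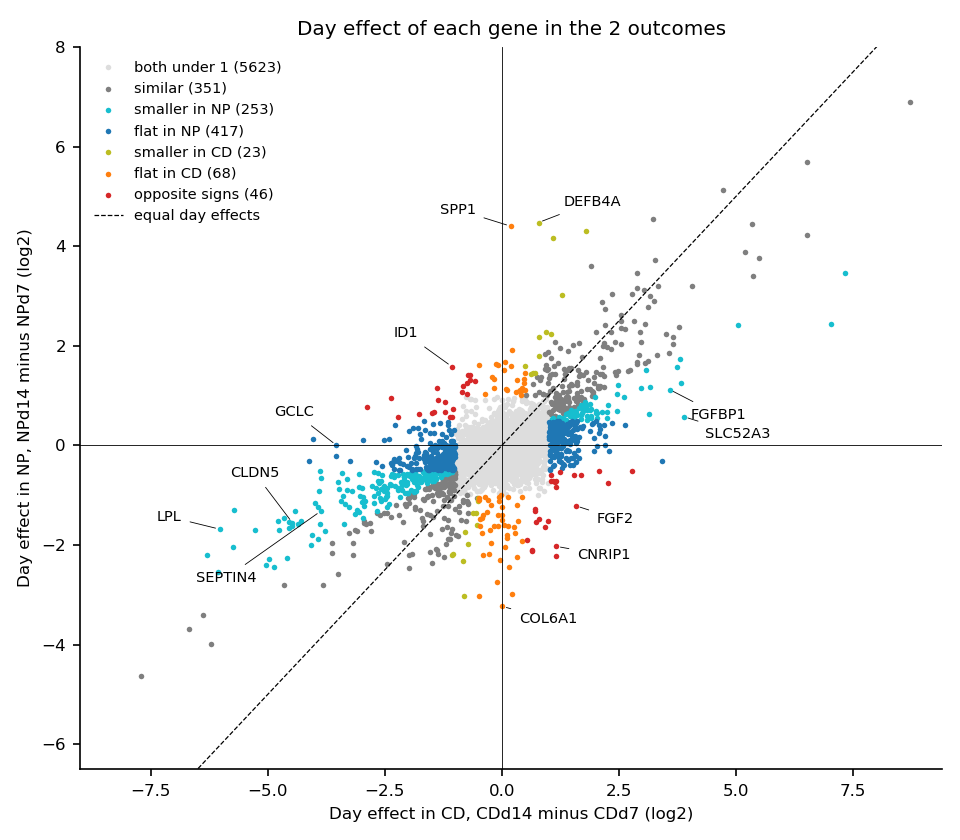
Day effect of each of the 6781 genes in CD (x axis) and in NP (y axis), both log2, coloured by class with the number of genes in the legend. On the dashed line the effects are equal; 417 genes lie in the band that is flat in NP, 68 in the band that is flat in CD, and 46 have opposite signs.

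The class sizes moved with single pools. When each of the 12 arrays was left out, the genes with opposite signs numbered 26 (without CDd7 pool 2) to 108 (without NPd7 pool 2), and 85 without NPd14 pool 3. Those flat in NP numbered 295 to 579, smaller in NP 169 to 310, flat in CD 60 to 93 and smaller in CD 19 to 39. In every one of these fits the classes with a smaller course in NP together outnumbered those with a smaller course in CD: 517 to 889 genes against 81 to 130. A gene kept its class in all 12 fits for 7 of the 46 genes with opposite signs, 69 of 417 flat in NP, 29 of 253 smaller in NP, 10 of 68 flat in CD and 0 of 23 smaller in CD. Among genes described below, FGF2, ID1, FGFBP1, SEPTIN4 and RABGEF1 kept theirs. GCLC, COL6A1, DEFB4A, MACROH2A2, FABP5, SFRP1, TEX30, CDK1 and SPP1 did not. Nor did SLC52A3, CCNB1, PTGER4, GJB5, NR3C1, TXNRD1, COL3A1, ID3, KIF4A, ADAM10, GPALPP1, APOD, GNG11 and OLR1. The same held for SERPINA14, IGFBP1, EDN3, MSTN and SLC7A1, which were classed as similar, and for CD8A and CD8B.

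**Figure D2:**
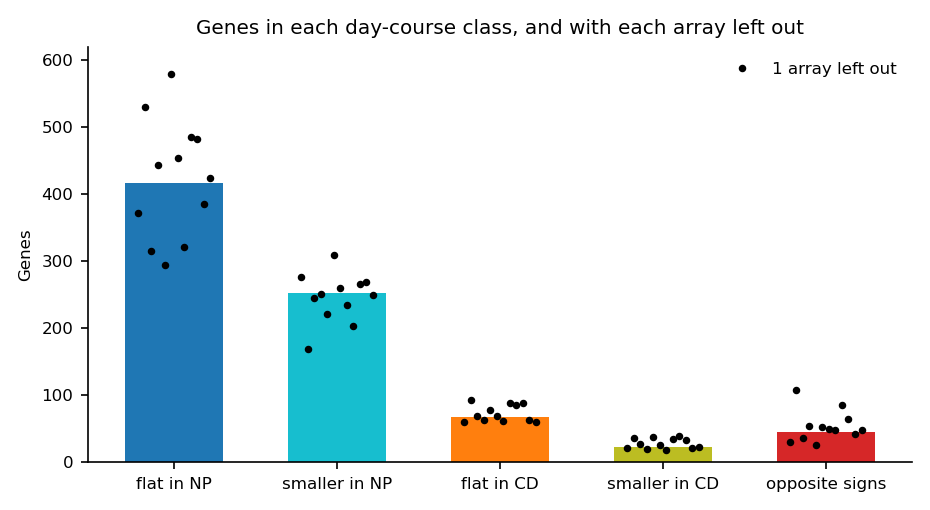
Number of genes in each day-course class (bars, all 12 arrays) and the same number with 1 array left out (12 points per bar). Flat in NP stays the largest of the 5 classes drawn, at 295 to 579 genes, while opposite signs ranges from 26 to 108.

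Seen from the other side, more genes had outcomes apart at day 7 only than at day 14 only. Of the 1158 genes, 350 (30.2%) had an outcome difference of at least 1 at day 7 and under 0.5 at day 14, and 59 had the reverse. Another 110 crossed, with outcome differences of opposite signs on the 2 days, both at least 0.5, and 639 fell under none of these. With the 3' to 5' score of the control transcripts as a covariate, 175 were apart at day 7 only and 219 crossed, so that the crossing genes were the more numerous. Without CDd7 pool 2 the first number was 213, and without NPd14 pool 2 the second was 99. Without NPd14 pool 3 the number that crossed was 206.

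The NP arrays were also placed on a scale set by the CD arrays, for genes chosen by their day effect in CD. That choice was not independent of the NP arrays, which entered the filter and the estimate of spread shared by all groups. The 743 genes with an adjusted p under 0.05 and a day effect of at least 1 in CD were taken, and each array was placed between the CDd7 mean (0) and the CDd14 mean (1) by its median over these genes. The NPd7 pools lay at 0.63, 0.27 and 0.73, that is, between the CD days, and the NPd14 pools at 0.97, 0.69 and 1.03. The CDd7 pools lay at -0.05, -0.13 and 0.19. NPd7 and CDd7 did not overlap on this scale, while pools 1 and 3 of NPd14 lay close to the CDd14 pools, which were at 0.990, 1.005 and 1.002. The genes were chosen from the same CDd7 and CDd14 values that set the scale. The gap between CDd7 and NPd7 is therefore partly built in, and nothing is read from it. Of the 743 genes, 687 (92.5%) had the same sign of day effect in NP, and the median NP effect was 0.36 times the CD effect. Genes picked for a large effect in CD tend to be smaller elsewhere, so the choice was turned round. For 193 genes with an effect of at least 1 and no overlap between the days in NP, the CDd14 pools lay at 0.97, 0.73 and 0.73 of the NP day course, and the CD effect was 0.74 times the NP effect. By the same size and overlap rule in CD, 875 genes were chosen and the ratio was 0.36.

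**Figure D3:**
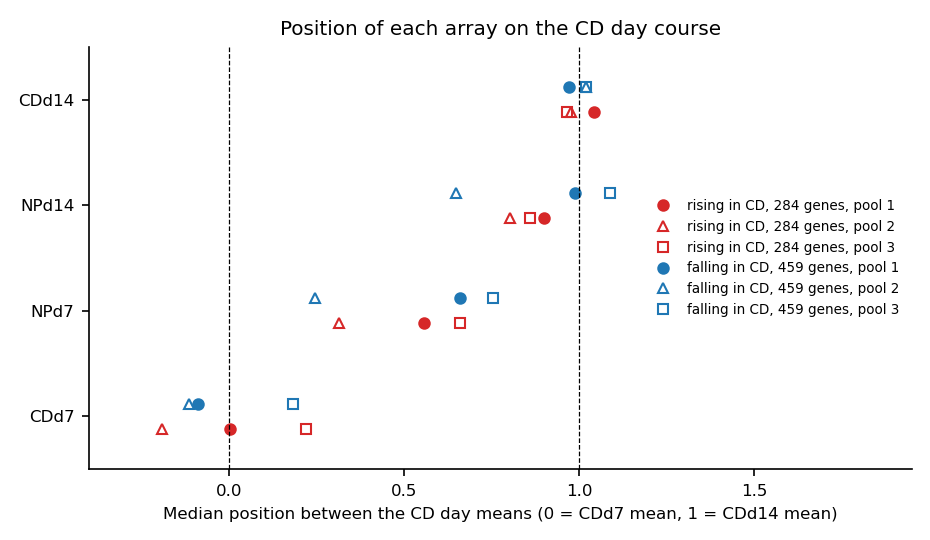
Median position of each array between the CDd7 mean (0) and the CDd14 mean (1), for 284 genes that rose and 459 that fell in CD; symbols mark pools 1, 2 and 3. NPd7 lies between the CD days in both sets, at 0.31 to 0.66 and at 0.25 to 0.75.

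The 5 genes with the smallest p included FGFBP1 and FGF2, both of fibroblast growth factor signalling. FGFBP1 encodes a secreted carrier that releases fibroblast growth factors from the matrix. It was at 5.18, 5.002 and 5.78 in the CDd7 pools and at 8.74, 9.33 and 8.63 in CDd14, against 7.55, 7.23 and 7.67 in NPd7 and 8.94, 8.15 and 8.72 in NPd14. All day 14 pools of both outcomes thus reached a common range, CDd7 was the lowest group, and every NPd7 pool lay between CDd7 and day 14. FGFBP1 rose 11.96-fold in CD (limma adjusted p = 0.00089) and was 2.18-fold higher at day 14 in NP (adjusted p = 0.12). The difference of the day effects was 2.46 ± 0.39 (95% interval 1.59 to 3.33, limma adjusted p = 0.192).

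FGF2, a fibroblast growth factor that acts on stroma, vessels and epithelium, ran in opposite directions. Its values were 5.40, 6.22 and 6.61 in CDd7 and 7.47, 7.98 and 7.53 in CDd14. In NPd7 they were 7.80, 6.98 and 7.996, and in NPd14 6.58, 6.57 and 5.98. No pool of one day overlapped the other day in either outcome, and the outcomes did not overlap on either day. FGF2 rose by 1.58 ± 0.35 in CD (limma adjusted p = 0.012), and the NP effect was -1.21 ± 0.35 (adjusted p = 0.16). The difference was 2.80 ± 0.49 (95% interval 1.70 to 3.89, limma adjusted p = 0.192). Without NPd7 pool 2, the lowest of that group, it was 3.10 (limma adjusted p = 0.032). With any other single pool left out the difference did not pass.

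The other 3 of the 5 had smaller courses in NP. SEPTIN4, a septin of the cytoskeleton, was at 10.55, 10.10 and 10.31 in CDd7 and 6.04, 7.24 and 6.07 in CDd14, and at 8.63, 9.13 and 8.59 in NPd7 and 7.10, 7.82 and 7.46 in NPd14. It fell 14.6-fold in CD (limma adjusted p = 0.0011) and was 2.50-fold lower at day 14 in NP. TFDP2, a dimerisation partner of the E2F cell cycle factors, fell by 2.68 in CD, with a NP effect of -0.86. NPd7 lay between the CD days for both genes. SLC52A3, a riboflavin transporter, was near the floor in 3 of 4 groups (2.09 to 3.19) and at 7.29, 5.47 and 5.44 in CDd14. Its NP values at day 14, 2.37, 2.94 and 3.19, stayed under the filter of 4. Here the outcomes were apart at day 14 and not at day 7, the less frequent pattern. The gene passed the filter through CDd14 alone, so at day 7 the outcomes were compared at the floor. Its difference of the day effects is likewise taken against the floor.

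**Figure D4:**
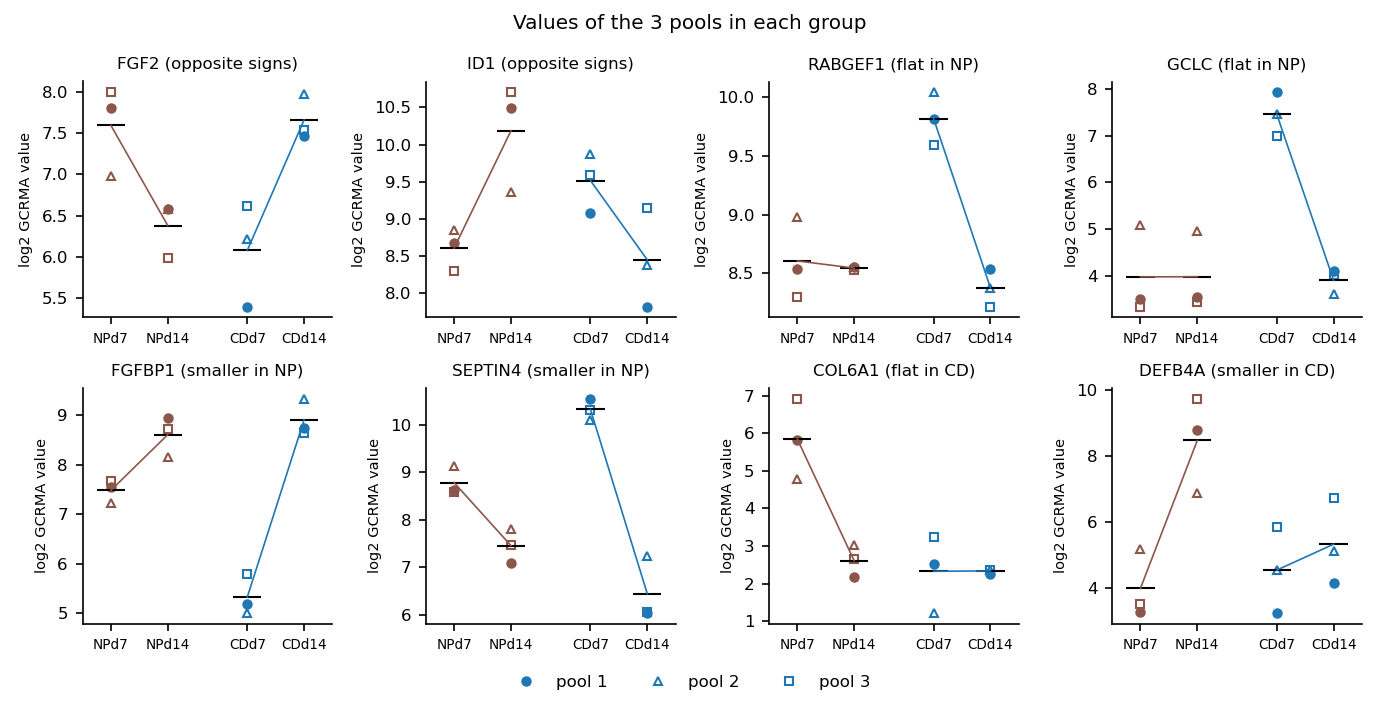
Log2 GCRMA values of 8 genes in the 3 pools of each group (symbols by pool), with group means as black lines joined between the days. FGF2 and ID1 run in opposite directions, RABGEF1 and GCLC are flat in NP, FGFBP1 and SEPTIN4 are smaller in NP, COL6A1 is flat in CD and DEFB4A smaller in CD. GCLC, COL6A1 and DEFB4A did not keep their class in all 12 fits with 1 array left out, while the other genes drawn did.

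Among the genes with opposite signs, only 4 of the 46 had no overlap between the days in either outcome: FGF2, MACROH2A2, CNRIP1 and CXCL12, the last of which was singled out after its values were seen. Over all 6781 genes, the days did not overlap in CD for 3042 (44.9%) and in NP for 1532 (22.6%). Opposite courses without overlap were found for 36 (0.531%), and courses in the same direction without overlap for 706. MACROH2A2, a variant histone linked to silent chromatin, was at 5.79, 5.80 and 6.64 in CDd7 and 6.89, 7.70 and 7.10 in CDd14, and at 7.73, 7.06 and 7.65 in NPd7 and 6.41, 6.91 and 7.01 in NPd14. It rose by 1.16 in CD (limma adjusted p = 0.023), with -0.71 in NP, and the difference was 1.86 ± 0.43 (adjusted p = 0.23). CNRIP1, which encodes a protein that binds the cannabinoid receptor, had a difference of 3.19 ± 0.81 (adjusted p = 0.244). It was at 3.38, 2.63 and 4.12 in CDd7, near the floor, and highest in NPd7 at 6.23, 5.33 and 7.90.

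ID1, an inhibitor of basic helix-loop-helix factors and a target of bone morphogenetic protein signals, ran the other way. It was at 9.07, 9.87 and 9.59 in CDd7 and 7.81, 8.38 and 9.14 in CDd14, but at 8.67, 8.85 and 8.29 in NPd7 and 10.49, 9.35 and 10.71 in NPd14. The CD days overlapped by a single pair of pools, and the NP days did not overlap. The difference was -2.65 ± 0.58 (95% interval -3.94 to -1.37, limma adjusted p = 0.23). The related ID3 was flat in CD (7.75 in all CDd7 pools, 7.49 to 7.70 in CDd14) and at 8.91, 7.74 and 9.91 in NPd14, with pool 2 at the day 7 level. FABP5, a fatty acid carrier, had effects of -0.67 in CD and 1.32 in NP, and a second probe set of it gave -1.42 and 1.64. SFRP1, a secreted Wnt antagonist, had 0.70 in CD and -1.31 in NP. None of the day effects of ID1, FABP5 and SFRP1 passed the limma test in either outcome.

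In the class flat in NP 217 of 417 genes had a negative CD effect, and 184 of 417 were apart from NP at day 7 only. RABGEF1, an exchange factor of the endosomal GTPase Rab5, was at 9.81, 10.04 and 9.60 in CDd7 and 8.54, 8.38 and 8.22 in CDd14. In NP it was at 8.54, 8.98 and 8.30 and then 8.55, 8.55 and 8.52. CDd7 was above all other pools. RABGEF1 fell by 1.44 ± 0.18 in CD (limma adjusted p = 0.0023), the NP effect was -0.06 ± 0.18, and a second probe set gave a difference of -0.85 beside the -1.38 of the first. YEATS2, a chromatin reader, had -1.66 in CD and -0.19 in NP, and its second probe set gave a difference of -1.51 beside -1.47. TEX30 fell by 2.18 in CD, with a NP effect of -0.49 just inside the limit of the class.

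GCLC, the catalytic subunit of the rate-limiting enzyme of glutathione synthesis, was at 7.92, 7.45 and 6.98 in CDd7 and at 4.12, 3.61 and 4.02 in CDd14. In NP it was at 3.51, 5.10 and 3.36 at day 7 and 3.55, 4.98 and 3.45 at day 14. GCLC thus was high in CDd7 alone, and pool 2 was the higher one of NP on both days. It fell 11.6-fold in CD (limma adjusted p = 0.0030), and the NP effect was 0.00 ± 0.51. The means of CDd14, NPd7 and NPd14 lay under the filter of 4, so the fold is taken against the floor and the flat NP course was read at it. The difference of -3.54 ± 0.73 had a limma adjusted p = 0.23. It became 0.027 with the pool within each outcome as a block, a fit added after seeing the data. Without NPd7 pool 2, the highest of that group, it was 0.032, and with any other single pool left out the difference did not pass. TXNRD1, which encodes thioredoxin reductase, fell by 1.84 in CD, with -0.48 in NP. These were the only 2 of 26 measured genes of glutathione and peroxide defence with an unadjusted p under 0.05 (beside 14.5% of all genes), and the median difference of that list was 0.10.

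Rising genes that were flat in NP included GADD45A, a stress and growth arrest protein. Its values were 10.08, 9.97 and 10.48 in CDd7 and 11.74, 11.75 and 11.75 in CDd14, against 11.13, 10.72 and 10.94 in NPd7 and 11.11, 11.47 and 11.33 in NPd14. The outcomes did not overlap on either day: CD was the lower one at day 7 and the higher one at day 14. GADD45A rose by 1.57 ± 0.16 in CD (limma adjusted p = 0.0016), and the NP effect was 0.37 ± 0.16. MYC, a growth-promoting transcription factor, rose by 1.39 in CD (adjusted p = 0.0095), with 0.05 in NP, where both days (9.76 to 10.97) lay near the CDd14 level (10.42 to 10.56). NR3C1, the glucocorticoid receptor, which is in the class smaller in NP, rose by 1.82 in CD (adjusted p = 0.0075), with 0.51 in NP.

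Several genes that fell steeply in CD had a negative NP effect of smaller size, which passed the test for none of the 6 named here. LPL, lipoprotein lipase, was at 13.25, 11.62 and 10.96 in CDd7 and 5.67, 6.17 and 5.90 in CDd14. In NP it was at 9.84, 11.74 and 8.67 at day 7 and 6.83, 9.90 and 8.48 at day 14. LPL fell 65.3-fold in CD (limma adjusted p = 0.0034), the NP effect was -1.68 ± 0.91, and the difference was -4.35 ± 1.28 (95% interval -7.20 to -1.49, adjusted p = 0.263). At day 7 the outcomes overlapped, and at day 14 every NP pool was above every CD pool.

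SLC39A8, a zinc and manganese importer, had the same shape: 14.92, 14.38 and 13.19 in CDd7, 9.71, 9.14 and 9.996 in CDd14, 12.51, 13.35 and 12.11 in NPd7, and 10.27, 12.48 and 10.59 in NPd14. It fell by 4.55 in CD, with -1.54 in NP, and day 14 again separated the outcomes. CLDN5, a tight junction protein of endothelium, was at 7.21, 5.78 and 6.17 in CDd7 and at 2.05, 2.03 and 1.66 in CDd14, with NPd7 between them at 3.21, 4.75 and 4.08. It was the sole endothelial marker of 11 listed that passed the filter, so it says little of vessels. Its day 14 means, 2.46 in NPd14 and 1.92 in CDd14, lay under the filter of 4, as did those of TIMP3 below (3.85 and 3.57). The falls of CLDN5 and TIMP3 were thus measured down to the floor. The prostaglandin E receptor PTGER4, which is in the class flat in NP, fell by 2.70 in CD, with -0.34 in NP, the gap junction protein GJB5 fell by 2.95, with -1.21 in NP, and the protease inhibitor TIMP3 fell by 3.93, with -1.24 in NP. The adjusted p of these 3 differences was 0.250, 0.281 and 0.323 by limma. In these genes, as in LPL and SLC39A8, NP pool 2 was the highest NP pool at day 7 and at day 14.

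Of the 68 genes flat in CD, 7 are on the stromal list. COL6A1, the one with the smallest p of the class, encodes a chain of the microfibrillar collagen VI. It was at 5.83, 4.79 and 6.92 in NPd7 and at 2.18, 3.02 and 2.65 in NPd14. In CD it was at 2.53, 1.22 and 3.24 at day 7 and 2.27, 2.38 and 2.38 at day 14, all under the filter. The signal was thus above the floor in NPd7 alone. The NP effect was -3.23 ± 0.56 (limma adjusted p = 0.052), the CD effect was 0.01 ± 0.56, and the difference was 3.24 ± 0.80 (adjusted p = 0.244).

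LUM, a small proteoglycan that spaces collagen fibrils, was at 8.02, 7.60 and 9.16 in NPd7 and 5.20, 7.59 and 5.27 in NPd14, where pool 2 stayed at the day 7 level. In CD both days lay between 4.78 and 5.87. The fibril collagen genes COL1A2 and COL3A1 had NP effects of -2.29 and -1.91 and CD effects of -0.03 and 0.42, and SPARC had -2.43 and 0.15. None of these day effects passed the limma test. Without both NP pool 2 arrays, a fit added after seeing the data, the differences were 3.68 for LUM and 3.86 for SPARC. Their limma adjusted p was 0.035 and 0.028 there, and 0.290 and 0.341 with all 12 arrays. NPd14 pool 2 had the day 7 level of both genes, so its removal widens the NP effect. Nothing is read from these p values.

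Of 14 measured stromal genes, 13 had a difference above 0, beside 3663 of all 6781 genes. Of the 13, 8 had an unadjusted p under 0.05 (beside 7.49% of all genes). The list's median difference was 2.30, against 0.04 over all genes, from a median of 0.37 in CD and -1.74 in NP. Its mean deviation from all arrays was 1.12, 1.09 and 1.82 in NPd7 and -0.61, 0.92 and -0.29 in NPd14, and -0.95, -1.57 and -0.41 in CDd7 and -0.60, -0.43 and -0.09 in CDd14. The NPd7 pools were the highest of all groups, with NPd14 pool 2 next to them. The share of stromal cells in a biopsy was not measured. With the stromal score itself as a covariate, which by construction takes up these genes, the median was -0.07, while FGFBP1 was at 2.57, SEPTIN4 at -2.93, GCLC at -4.01 and FGF2 at 2.27. All 4 had a limma adjusted p of 0.949 in that fit, in which 431 probe sets had an unadjusted p under 0.05, against 1900 without the covariate. RABGEF1 was at -0.94, CNRIP1 at 1.33 and COL6A1 at 1.18.

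NTRK2, a neurotrophin receptor, was high in NPd7 alone, as COL6A1 was, with 6.58, 4.48 and 7.92 there and 3.26 to 3.72 on all other arrays. Unlike LUM and SPARC, it was low in NPd14 pool 2 (3.39). Its difference was 3.19 ± 0.91 (limma adjusted p = 0.262), and a second probe set gave 3.44. Without NPd7 pool 2, the lowest of that group, it was 4.12 (limma adjusted p = 0.016). With any other single pool left out the difference did not pass. The gene passed the filter through NPd7 alone, and the other 3 groups lay under 4, so these differences are taken against the floor. GPALPP1, with 1.08 ± 0.13 in NP and 0.42 ± 0.13 in CD, passed the limma test of the day effect in both outcomes (adjusted p = 0.014 and 0.041), but the means of NPd7, CDd7 and CDd14 lay under the filter of 4, so its CD effect was measured at the floor. It was 1 of 6 genes of at least 1 in size in NP that passed there, with CCNL1, CDK5, GNG11, LARS2 and SLC7A1. The G protein subunit gene GNG11 fell by 1.06 in NP, with -0.51 in CD, and the cationic amino acid transporter gene SLC7A1 rose by 1.005 in NP and by 0.51 in CD.

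SPP1 and DEFB4A had fitted effects of over 4 in NP and under 1 in CD, and neither passed the limma test in NP. SPP1, osteopontin, a secreted ligand of integrins, was at 8.43, 8.72 and 7.77 in NPd7 and 13.97, 10.22 and 13.93 in NPd14. In CD it was at 9.45, 8.66 and 9.997 at day 7 and 7.15, 10.27 and 11.25 at day 14. The CD day 14 pools spread over more than the day 7 pools, and NPd14 pools 1 and 3 were above all others. The difference was -4.22 ± 1.62 (95% interval -7.82 to -0.62, limma adjusted p = 0.311).

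DEFB4A, a beta-defensin, was at 3.29, 5.17 and 3.52 in NPd7 and at 8.78, 6.89 and 9.74 in NPd14. In CD it was at 3.25, 4.54 and 5.85 and then at 4.14, 5.11 and 6.73. All NPd14 pools were above all other pools. The difference was -3.69 ± 1.32 (adjusted p = 0.304 by limma). APOD, a lipid-binding secreted protein, had -3.02 in NP and -0.80 in CD, and the scavenger receptor OLR1 had 2.23 in NP and 1.04 in CD. The difference of OLR1, the last named gene of the class smaller in CD, was -1.19 ± 0.70 (adjusted p = 0.439 by limma).

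Genes of the cell cycle had median day effects of opposite sign in the 2 outcomes. Of 30 measured genes 27 had a difference below 0, beside 3118 of all 6781 genes. Of the 27, 7 had an unadjusted p under 0.05 (beside 6.96% of all genes). The median was -1.42, from -0.76 in CD and 0.48 in NP. In CD 7 fell, 1 rose (beside 14.2% and 9.87% of all genes) and 22 did not pass, and in NP 0 passed the limma test. CDK1, the mitotic kinase, was at 8.16, 10.80 and 10.48 in CDd7 and 8.08, 7.44 and 7.08 in CDd14, and at 6.34, 7.64 and 6.79 in NPd7 and 7.08, 7.29 and 7.61 in NPd14. Pools 2 and 3 of CDd7 were high, and pool 1 was close to CDd14. CDK1 fell by 2.28 in CD (adjusted p = 0.026), and the NP effect was 0.40 ± 0.62.

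HMMR, a spindle protein, fell by 1.49 in CD, with -0.03 in NP. Its second probe set, which is dim, gave -0.30 in CD and -0.01 in NP. KIF4A, a chromosome-bound kinesin that is on no list, had -0.50 in CD and 1.62 in NP. Its NPd7 and NPd14 means (2.34 and 3.96) lay under the filter of 4, so its NP effect was measured at the floor. CCNB1 fell by 6.06 in CD, with -2.54 in NP. The list's mean deviation was -0.33, 1.60 and 1.24 in CDd7, -0.14, -0.45 and -0.15 in CDd14, -0.75, -0.08 and -0.59 in NPd7 and -0.24, -0.15 and 0.05 in NPd14. Without CDd7 pool 1 its median was -2.17, and over all other settings it stayed below 0 (-0.90 at the nearest, with the stromal score as a covariate).

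Markers of T and natural killer cells were above 0 in the difference for all 11 measured genes, of 17 listed. Of all 6781 genes 3663 were above 0. The median was 1.21, from 0.77 in CD and -0.35 in NP, and 3 of the 11 had an unadjusted p under 0.05 (beside 7.49% of all genes above 0). CD8A, a chain of the CD8 co-receptor, was at 6.88, 5.82 and 7.32 in CDd7 and 7.60, 7.77 and 7.60 in CDd14, and at 8.26, 7.99 and 8.84 in NPd7 and 7.64, 7.00 and 8.17 in NPd14. CDd7 had the lowest mean and NPd7 the highest, and at day 14 the outcomes overlapped. The difference of CD8A was 1.75 ± 0.56 and that of its partner chain CD8B 1.31 ± 0.32 (limma adjusted p = 0.283 and 0.244), the latter with 3 group means under the filter. The list's median was 0.64 with the stromal score as a covariate, its lowest value among the settings.

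**Figure D5:**
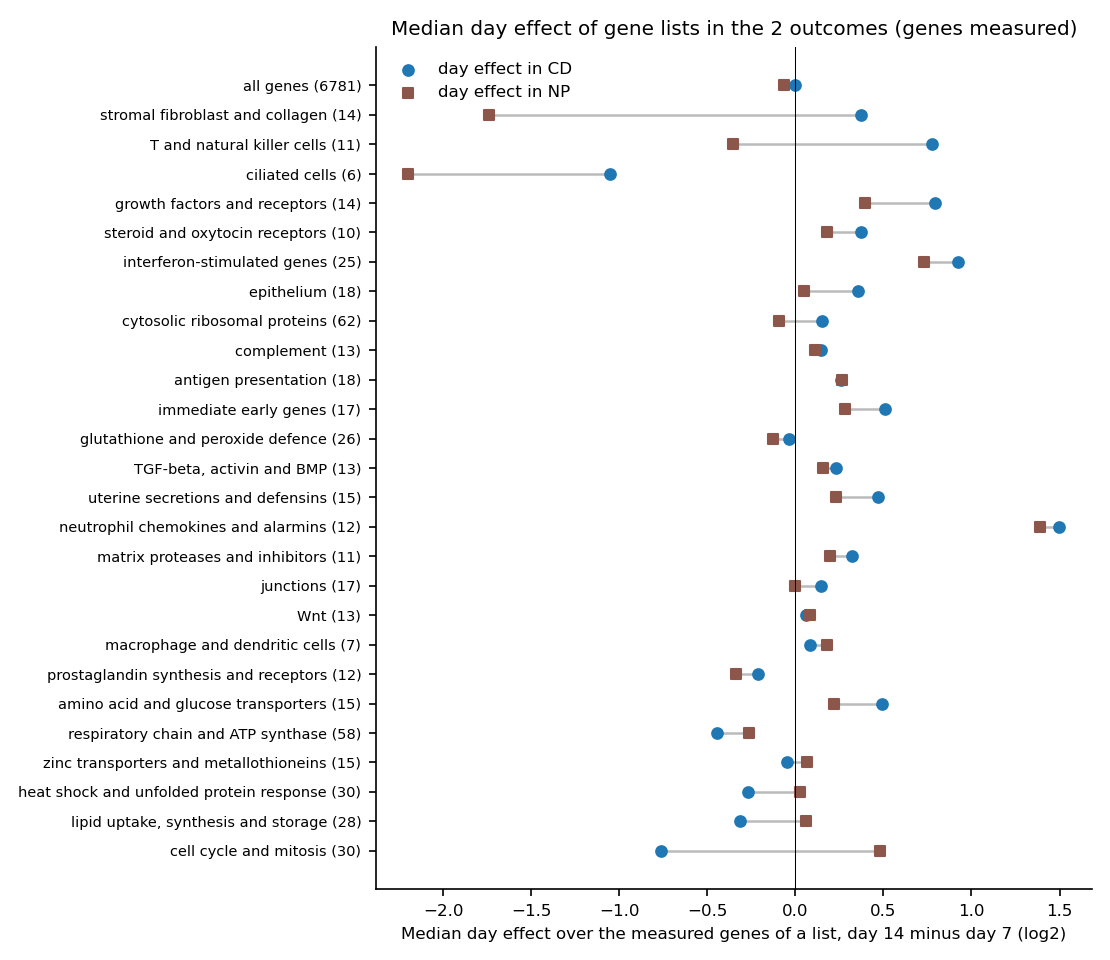
Median day effect (log2) in CD (circles) and NP (squares) over the measured genes of each list with at least 5, whose number stands in brackets; lists are ordered by the median difference, with all genes on top. The widest gaps are those of the stromal genes (0.37 and -1.74) and the cell cycle genes (-0.76 and 0.48).

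Cytosolic ribosomal protein genes differed little, but in 1 direction. All 62 measured genes had a difference above 0, beside 3663 of all 6781 genes. The median was 0.28 (0.21 to 0.33 over all settings) and the range 0.06 to 0.68. An unadjusted p under 0.05 was reached by 19 (beside 7.49% of all genes). The median effects were 0.15 in CD and -0.09 in NP. RPS9 was at 12.34, 12.13 and 12.20 in CDd7 and 12.55, 12.51 and 12.54 in CDd14, and at 12.78, 12.64 and 12.90 in NPd7 and 12.61, 12.36 and 12.41 in NPd14. The difference of RPS9 was 0.62 ± 0.16 (limma adjusted p = 0.244). In neither outcome did its days overlap.

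Of 30 measured genes of the heat shock and unfolded protein responses 10 fell and 3 rose in CD (beside 14.2% and 9.87% of all genes) and 0 passed in NP. For the difference 8 were below 0 with an unadjusted p under 0.05 and 1 above 0 (beside 6.96% and 7.49%), and the median was -0.30. The chaperone gene CANX was at 14.11, 14.15 and 13.85 in CDd7 and 13.38 to 13.42 in CDd14, while NP stayed at 13.37 to 13.76 on both days. CANX fell by 0.64 ± 0.13 in CD (limma adjusted p = 0.0098), with 0.01 ± 0.13 in NP. BAG3, a co-chaperone, fell by 1.502, with -0.26 in NP. HYOU1 and HSP90B1, chaperones named after their values were seen, had differences of -1.99 and -1.29. The small heat shock gene HSPB1, named likewise, had 0.62.

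The lipid list followed with a median of -0.43 over 28 genes, of which 5 were below and 1 above 0 at an unadjusted p under 0.05 (beside 6.96% and 7.49% of all genes). Beside LPL and FABP5 these were SREBF1, ELOVL5 and ACSL3, which act in fatty acid synthesis, elongation and activation, with differences of -1.26, -1.03 and -0.77. The 1 above 0 was the fatty acid receptor CD36 at 1.83. These 4 genes were named after their values were seen. In CD 4 of the 28 fell and 1 rose, beside 14.2% and 9.87% of all genes, so that the share that fell was that of the background.

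Several genes with the widest day courses were classed as similar in the 2 outcomes, within wide intervals. The zinc transporter SLC39A2 rose by 8.71 in CD, with 6.90 in NP, the chemokine CXCL8 rose by 6.52, with 5.70 in NP, and the uterine serpin SERPINA14 rose by 5.37, with 3.39 in NP. IGFBP1, a binding protein of insulin-like growth factors, rose by 5.50 in CD, with 3.76 in NP. In NP the difference between pools was large: IGFBP1 was at 6.23, 9.50 and 2.19 in NPd14, and SERPINA14 at 8.25, 9.05 and 3.48, so that pool 3 had the day 7 level of both. The intervals of the differences were -3.68 to 7.29 for SLC39A2, -3.25 to 4.88 for CXCL8, -2.20 to 6.16 for SERPINA14 and -2.76 to 6.24 for IGFBP1. A difference of several log2 units was therefore not detectable for them. Without NPd14 pool 3 the differences of SLC39A2 and CXCL8 were -0.73 and -0.43.

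EDN3, an endothelin, fell by 7.70 in CD (limma adjusted p = 0.0070), with -4.64 ± 1.45 in NP, where pool 2 was at 10.08 at day 14 against 4.80 and 2.66. The interferon-induced gene MX1 rose by 1.49 in CD, with 1.21 in NP, and the difference of 0.28 had an interval of -0.63 to 1.19. ISG15 rose by 2.01, with 2.27 in NP. Over 25 interferon-stimulated genes the median difference was 0.39, with 5 above and 2 below 0 at an unadjusted p under 0.05 (beside 7.49% and 6.96% of all genes), and 14 rose in CD (beside 9.87%). The oxytocin receptor gene OXTR had 0.12 in CD and -0.30 in NP. For MSTN, a growth inhibitor of muscle that the endometrium also expresses, the pools of a group spread from 3.30 to 10.15 in NPd14, and the difference of -0.54 ± 2.69 could not be placed on either side of 0.

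Where a gene had further kept probe sets they mostly followed the first. For 60 genes with an unadjusted p under 0.05 and a class other than similar, 72 of 77 further probe sets (93.5%) had the same sign of the difference. ADAM10, a membrane protease, had -0.85 ± 0.25, and its 2 further probe sets gave -1.59 and -1.74. For COL1A2 and COL3A1 the further probe sets gave 2.14 and 2.31, beside 2.26 and 2.33.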

How the data were processed

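The values deposited by the authors are log2 values of GCRMA, per the submitters' processing notes, which name GCRMA and limma without versions. GCRMA subtracts background, normalizes between arrays and pulls dim probe sets to a floor, so folds of dim genes depend on it. From 24128 probe sets 112 AFFX controls were left out, and values above 4 on at least 3 arrays were required. Of the 13449 kept, 8239 had 1 symbol in the platform annotation, 59 several and 5151 none. A gene is its kept probe set with the highest mean. A linear model of 4 group means was fitted with limma 3.58.1 in R 4.3.3 (8 residual degrees of freedom, empirical Bayes, Benjamini-Hochberg over 13449), tested on simulated data. No sequence or genome coordinate was used. Precision is limited by the 12 arrays.

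The classes, the 30 gene lists and the alternatives were chosen with earlier results of these data known. Genes were named by rule: the 5 with the smallest p where under 5 pass, 4 per class by p, up to 2 per list with an unadjusted p under 0.05, and 18 fixed genes, of which 15 were measured (PGR, ESR1 and DKK1 did not pass the filter or carry no single symbol here). Some were left out for length. Alternatives were another filter, eBayes setting, normalization or probe set rule, array weights, blocks, 2 covariates, other class limits, and each array left out.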

Additional observations from a re-analysis of the deposited data

How the results depend on the processing

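The count of called probe sets (0) was 1 without a filter, 2825 with array weights, 503 with weights estimated gene by gene and 28 with the pool within each outcome as a block. The first weights gave 44.0 to NPd14 pool 1 (lowest 0.277), and the second 0.379 to 4.13; the first estimate did not converge, and 1 array carried most of that fit. The gene-by-gene weights and the block within outcome were chosen after seeing the data. The gene lists with at least 1 called member numbered 28, 18 and 1 in the weighted, gene-by-gene and within-outcome block fits. With 1 array left out the calls were 0 to 53 (59 without both NP pool 2 arrays, also added later) and the lists with a called member 0 to 4. The genes with opposite signs then numbered 26 to 108, those smaller in CD 19 to 39, those apart at day 7 only 213 to 492, at day 14 only 45 to 99, and those crossing 101 to 206. Without both NP pool 2 arrays there were 41 genes smaller in CD, 96 flat in CD, 79 with opposite signs and 92 apart at day 14 only.

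The genes with opposite signs, flat in CD and smaller in CD numbered 100, 112 and 72 with array weights and 88, 104 and 53 with gene-by-gene weights. Adding the control transcripts' 3' to 5' score gave 112 flat in CD, 163 smaller in NP, 175 apart at day 7 only and 219 crossing. The stromal score gave 29 apart at day 14 only and 73 crossing. With moved genes taken from 1.5, there were 20 with opposite signs, 113 flat in NP and 33 flat in CD. With flat under 0.3, there were 78 with opposite signs, 236 flat in NP, 39 flat in CD, 409 smaller in NP and 45 smaller in CD; these follow from the limits themselves. For the covariates the cause was not tested.

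The difference turned sign with array weights for SLC39A2 (-1.30) and CXCL8 (-0.17), and with gene-by-gene weights (-0.72 and -0.043). With the stromal score it turned for APOD (-0.62), LUM (-0.048), OXTR (-0.37), SERPINA14 (-0.35), MX1 (-0.014), SPARC (-0.78), COL1A2 (-0.40), COL3A1 (-0.26), SLC39A2 (-0.089) and IGFBP1 (-1.11). With 1 array left out it turned for MSTN (-2.76 to 0.66), MX1 (-0.11 to 0.57), ISG15 (-0.76 to 0.42), SLC39A2 (-0.73 to 3.15), CXCL8 (-0.43 to 1.83) and IGFBP1 (-0.15 to 3.51). The other values of named genes kept their sign, 1561 on the same side of the threshold and 107 newly past it, the latter mostly with array weights.

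The pool number as a replicate block gave 0 calls (2361 at an unadjusted p under 0.05, against 1900). Same-numbered pools of the 2 days correlated at 0.24, -0.07 and 0.23 in CD and 0.16, 0.62 and 0.51 in NP in their deviations from group means, and 8 of 12 arrays matched their own number best. The numbers were not taken as pairs, because pool 2 of CD did not correlate above 0 and no label says that a number marks the same heifers.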

Other observations

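Ciliated cell markers were lower at day 14 in both outcomes, without passing the test in either. All 6 measured of 21 listed had a difference above 0, beside 3663 of all 6781 genes. The median was 1.14, from -1.05 in CD and -2.20 in NP, and 0 had an unadjusted p under 0.05 by limma. The mean deviation of the list was -1.32, -0.49 and -3.30 in NPd14, so that pool 3 was far below the other pools, and -1.07, 1.10 and 0.13 in CDd14. NPd14 pool 3 is also the array at which SERPINA14 and IGFBP1 stayed at the day 7 level.

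Of 12 measured neutrophil chemokines and alarmins 5 rose in CD (beside 9.87% of all genes), and the medians of 1.4996 in CD and 1.39 in NP left a median difference of 0.03. Respiratory chain and ATP synthase genes fell in CD in 19 of 58 (beside 14.2% of all genes), with medians of -0.44 in CD and -0.27 in NP, and 1 of 58 had an unadjusted p under 0.05 for the difference, beside 14.5% of all genes (ATP5MC2, 0.71 ± 0.25). Among the 5210 kept probe sets without a single symbol, 708 (13.6%) had an unadjusted p under 0.05, close to the share of all probe sets.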
